A study of Mus musculus with 3 samples.

Results

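The transforming growth factor-beta (TGF-β) genes examined here were 10 genes chosen by name: the ligand genes Tgfb1, Tgfb2, Tgfb3 and Inhba, the receptor genes Tgfbr1, Tgfbr2 and Tgfbr3, the signal transducer Smad3, and the feedback genes Smad7 and Smurf2. Of these 10, 9 had values among the 34742 genes of the table. Tgfb1 was not analysed here, because its line in the table is broken and its values could not be placed under a library with certainty. The study sequenced RNA of cultured lung mesenchymal stromal cells (LMSCs) from MMTV-PyMT mice, in which the mouse mammary tumour virus promoter drives the polyoma middle T oncogene in mammary epithelium. The data analysed here hold 1 library per tumour stage: A-LMSC came from mice of 7 weeks with adenoma, PM-LMSC from mice of 11 weeks before lung metastasis, and M-LMSC from mice of 13 weeks with lung metastasis. Every library, A-LMSC included, carries the transgene on the FVB background, no library of tumour-free mice was analysed here, and age moves with stage. The cells were adherent lung cells freed of CD45-positive leukocytes on magnetic beads and then passaged, so they are what survived in culture and not the stroma as it lay in the lung. The study's methods describe further libraries of each stage, which were not analysed here. The study counts mice as its replicates, which points to a single mouse behind each library, but the labels do not state it.

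TGF-β ligands are secreted in a latent form, held by a propeptide that is bound to matrix or to the cell surface, and are set free by integrins, thrombospondin or proteases. The free ligand binds the type II receptor TGFBR2, which recruits and phosphorylates the type I receptor TGFBR1, and this kinase phosphorylates SMAD2 and SMAD3, which enter the nucleus with SMAD4. SMAD7, itself induced by the signal, blocks the activated receptor and brings the ubiquitin ligase SMURF2 to it. In lung fibroblasts the pathway is known for driving collagen synthesis and the contractile myofibroblast state.

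Before adjustment for GC content and transcript length, A-LMSC had the lowest level of all 9 measured genes. Smurf2, Inhba and Tgfb2 had the largest unadjusted ratios of PM-LMSC to A-LMSC. M-LMSC then held 0.34-fold the Tgfb3 and 0.55-fold the Inhba of PM-LMSC, while the other 7 genes lay closer together at these stages. The order changed once the trend of the ratios with GC content and transcript length was subtracted. Smurf2, Tgfb3 and Smad7 then had the largest log2 ratios of PM-LMSC to A-LMSC (3.42, 2.34 and 2.13). Tgfbr2 then fell below A-LMSC in both later libraries, and Tgfbr1 in M-LMSC. The start regions of Smurf2, Tgfb2 and Inhba are printed here as the 3 members with the largest unadjusted ratios of PM-LMSC to A-LMSC. They come from RefSeq on GRCm38.p6, the build that mm10 corresponds to. Each run holds 250 bases before and 50 bases after the annotated start, on the strand of the gene. Capitals mark matches on either strand to the motifs searched. The SMAD box was spelled CAGACA. The GC box was spelled GGGCGG. The TATA box was spelled TATAAA. The AP-1 site (TGAGTCA) and the palindromic SMAD site (GTCTAGAC) had no match in these regions.
Smurf2, chr11:106920666-106920965, minus strand: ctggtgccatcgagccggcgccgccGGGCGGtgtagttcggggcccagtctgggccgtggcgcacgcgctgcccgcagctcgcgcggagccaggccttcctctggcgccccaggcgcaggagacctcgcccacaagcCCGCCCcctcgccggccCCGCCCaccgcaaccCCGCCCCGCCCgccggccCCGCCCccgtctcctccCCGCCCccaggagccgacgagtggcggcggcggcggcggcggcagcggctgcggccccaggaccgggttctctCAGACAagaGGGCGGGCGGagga
Tgfb2, chr1:186705940-186706239, minus strand: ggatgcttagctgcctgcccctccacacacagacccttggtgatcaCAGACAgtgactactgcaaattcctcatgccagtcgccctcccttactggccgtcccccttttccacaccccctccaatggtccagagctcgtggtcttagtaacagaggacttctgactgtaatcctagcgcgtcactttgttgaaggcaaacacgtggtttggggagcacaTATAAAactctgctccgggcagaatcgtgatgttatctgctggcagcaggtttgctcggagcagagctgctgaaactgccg
Inhba, chr13:16011601-16011900, plus strand: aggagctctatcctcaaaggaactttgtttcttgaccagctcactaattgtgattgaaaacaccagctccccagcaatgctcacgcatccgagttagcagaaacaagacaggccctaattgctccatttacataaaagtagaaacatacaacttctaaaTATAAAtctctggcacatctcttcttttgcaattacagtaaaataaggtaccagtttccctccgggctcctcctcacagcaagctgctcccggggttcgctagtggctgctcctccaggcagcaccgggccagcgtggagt
The 3 regions differ in makeup. The Smurf2 region has a GC content of 80.3% with 43 CpG dinucleotides and 9 GC boxes, some of them overlapping, and a SMAD box 28 bases after the start. The Tgfb2 region has 54.3% GC, 10 CpG dinucleotides, a TATA box beginning at position -31 and a SMAD box at -204, and the Inhba region has 47.7% GC, 7 CpG dinucleotides and a TATA box at -91. Over all 32851 start regions of this length the median was 52.7% GC and 7 CpG dinucleotides. A SMAD box was in 21.0% of them, a GC box in 35.7%, a TATA box in 13.6%, an AP-1 site in 5.2% and the palindromic SMAD site in 0.213%. Start regions of 7 of the 10 named genes were searched. Those of Smad7, Tgfb3 and Tgfbr3 were not searched, so the motif results do not cover these genes. Such letter matches describe the sequence and do not show that a factor binds.

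The libraries held 12594155 to 14338909 counts. Levels are CPM, counts relative to the library total, scaled by the trimmed mean of M values (TMM), where the floor of 3 counts lay at 0.174 to 0.272 CPM. With 1 library per stage no difference has a replicate check and no test was possible. Intervals are exact 95% Poisson or binomial intervals that cover counting error only. A gene counted as measured where its higher library reached 1 CPM, and as higher or lower where the ratio of CPM + 1 was at least 2-fold. Of the LMSC surface markers stated by the study, Itgb1, Cd44, Nes, Pdgfra and Ly6a had counts in every library. Each of these had a higher level in both later libraries than in A-LMSC. The summed level of the 10 LMSC and fibroblast markers stood at 32062, 19205 and 7392 CPM in A-LMSC, then PM-LMSC and M-LMSC. Col1a1 and Col1a2 weighed most in the A-LMSC sum, at 16401 and 13379 CPM, and had 1815 and 1511 CPM in M-LMSC. Thy1 and Pdgfrb were also lower in both later libraries, and Vim was highest in PM-LMSC. The 8 epithelial markers summed to 119.8, 66.6 and 1136 CPM, with Krt7 and Krt8 leading in M-LMSC. Sftpc and Sftpb made up most of the A-LMSC sum, at 87.8 and 18.3 CPM, and were at 0 in PM-LMSC. Epcam, Krt8, Krt18, Krt7, Cdh1 and Cldn4 were each higher at each later stage. The 8 leukocyte markers summed to 81.9, 300.3 and 128 CPM, mostly from Lyz2, and Ptprc (CD45) had 0, 3 and 9 counts. The 6 endothelial markers summed to 1.63, 15.3 and 5.63 CPM, the 4 mesothelial markers to 25.8, 45.1 and 83.8, and the 6 pericyte and smooth muscle markers to 8660.1, 10409 and 7858. The part of these cell types in the results that follow was not tested. In RNA of a whole culture, fewer cells of a type and less RNA per cell cannot be told apart.

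**Figure D1:**
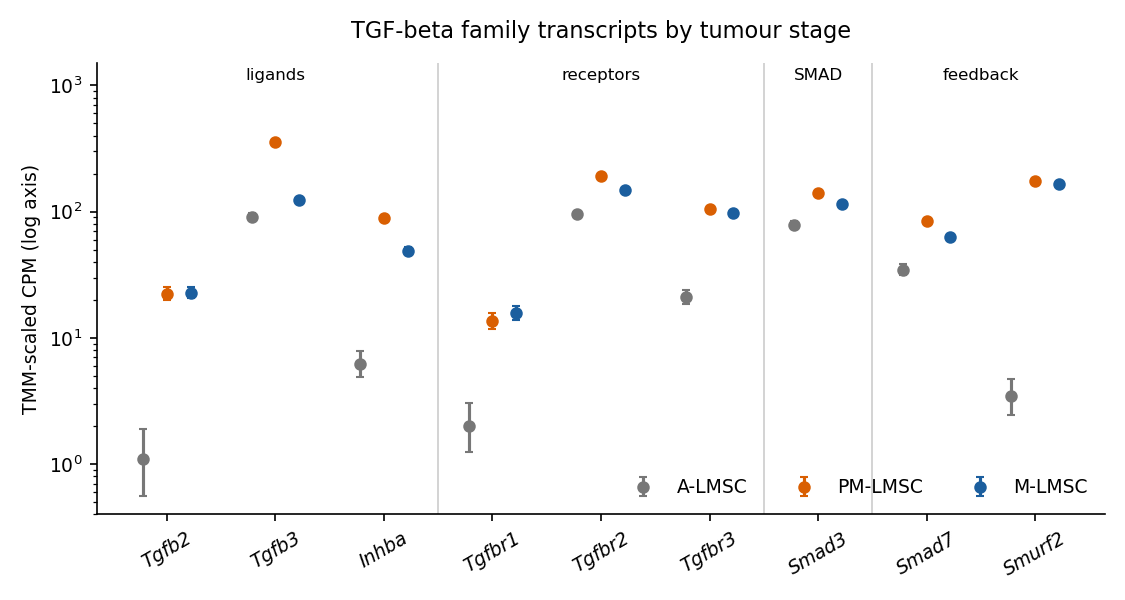
Level of each measured gene in A-LMSC, then PM-LMSC and M-LMSC, in TMM-scaled CPM on a log axis. Points are single libraries and bars are exact 95% Poisson intervals of the count. Every gene is lowest in A-LMSC, and Tgfb3 stands at 91.5, 360 and 123 CPM.

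Among Tgfb2, Tgfb3 and Inhba, Tgfb3 was the most abundant ligand transcript in every library. Tgfb3 (ENSMUSG00000021253, chromosome 12, 86056744 to 86079041 on mm10, minus strand), a ligand whose loss in mice causes cleft palate and impaired lung development, had 91.5 CPM in A-LMSC, then 360 in PM-LMSC and 123 in M-LMSC. PM-LMSC stood apart from both other libraries. Its level was 3.93-fold that of A-LMSC (interval 3.67 to 4.21), and M-LMSC reached 0.34-fold the level of PM-LMSC (0.32 to 0.36) and 1.34-fold that of A-LMSC (1.25 to 1.45). The gene Ttll5 overlaps Tgfb3 on the opposite strand and had 44, 142 and 234 counts in A-LMSC, then PM-LMSC and M-LMSC, against 1009, 4604 and 2118 for Tgfb3. The sources used here do not say whether counting used strand, so reads in the overlap cannot be told apart.

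Tgfb2 was near the floor in A-LMSC. Tgfb2 (ENSMUSG00000039239, chromosome 1, 186622792 to 186705989, minus strand), a ligand that needs the coreceptor TGFBR3 for efficient binding to TGFBR2, had 12 counts in A-LMSC, then 287 in PM-LMSC and 393 in M-LMSC. These were 1.09 CPM (interval 0.562 to 1.90) in A-LMSC, then 22.4 (19.9 to 25.2) in PM-LMSC and 22.8 (20.6 to 25.2) in M-LMSC. PM-LMSC and M-LMSC lay at the same level within counting error, 20.6-fold (11.6 to 40.4) and 21.0-fold (11.9 to 40.9) above A-LMSC.

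Inhba encodes the βA subunit whose dimer is activin A, a ligand that uses other receptors but the same SMAD2 and SMAD3. Inhba (ENSMUSG00000041324, chromosome 13, 16011851 to 16027211, plus strand) had 6.25 CPM in A-LMSC (69 counts), then 88.7 in PM-LMSC and 48.9 in M-LMSC. PM-LMSC was highest, as for Tgfb3. The level in PM-LMSC was 14.2-fold that in A-LMSC (11.1 to 18.4), that in M-LMSC 7.81-fold that in A-LMSC (6.11 to 10.1) and 0.55-fold that in PM-LMSC (0.50 to 0.60).

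Levels of the ligands lay closer together at the later stages in FPKM, without adjustment for the trend with GC content and transcript length. In the deposited FPKM, which are scaled by gene length and so allow levels of different genes to be set side by side, Tgfb3 had 22.1 in A-LMSC, then 108 in PM-LMSC and 43.6 in M-LMSC, and Tgfb2 had 0.098, 2.51 and 3.02. The counts and FPKM imply gene lengths that differ from the longest transcripts used here for the trend. Ratios between genes in FPKM therefore depend on the lengths chosen by the authors. The level of Tgfb3 in FPKM was 226 times that of Tgfb2 in A-LMSC, 43.1 times in PM-LMSC and 14.5 times in M-LMSC. Against Inhba, the level of Tgfb3 in FPKM was 12.9, 3.57 and 2.22 times as high in A-LMSC, then PM-LMSC and M-LMSC. The comparison came out differently once the trend of the ratios with GC content and transcript length was subtracted. The log2 ratio to A-LMSC in PM-LMSC was then larger for Tgfb3 (2.34) than for Tgfb2 (1.63) or Inhba (1.90). In M-LMSC it was smaller for Tgfb3 (1.07) than for Tgfb2 (1.49) but larger than for Inhba (0.05).

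The receptors ordered alike in every library, with Tgfbr2 first, Tgfbr3 next and Tgfbr1 last in FPKM. Tgfbr2 (ENSMUSG00000032440, chromosome 9, 116087698 to 116175363, minus strand), the type II receptor that binds ligand first, had 95.7 CPM in A-LMSC, then 192 in PM-LMSC and 148 in M-LMSC. The ratio of PM-LMSC to A-LMSC was 2.01 (1.87 to 2.16) without a pseudocount and 1.00 on the log2(CPM + 1) scale, just under the 2-fold line. M-LMSC stood 1.55-fold above A-LMSC (1.44 to 1.67).

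Of Tgfbr1, Tgfbr2 and Tgfbr3, Tgfbr1 was the scarcest transcript. Tgfbr1 (ENSMUSG00000007613, chromosome 4, 47353222 to 47414931, plus strand), the type I receptor kinase, had 22 counts in A-LMSC, then 174 in PM-LMSC and 272 in M-LMSC, or 1.99, 13.6 and 15.8 CPM. PM-LMSC stood 6.82-fold above A-LMSC (4.36 to 11.2) and M-LMSC 7.91-fold (5.12 to 12.8), while the interval of M-LMSC to PM-LMSC, 0.96 to 1.41, includes no difference. In FPKM the level of Tgfbr2 was 91.6 times that of Tgfbr1 in A-LMSC, 27.0 times in PM-LMSC and 17.9 times in M-LMSC.

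Tgfbr3 (ENSMUSG00000029287, chromosome 5, 107106570 to 107289629, minus strand) encodes betaglycan, the coreceptor that presents TGF-β to TGFBR2 and also binds inhibin. It had 21.0 CPM in A-LMSC, then 105 in PM-LMSC and 98.3 in M-LMSC. Both later libraries were high, 4.98-fold (4.33 to 5.75) and 4.67-fold (4.07 to 5.38) above A-LMSC, and their own ratio of M-LMSC to PM-LMSC had an interval of 0.87 to 1.01.

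Smad3, the receptor-activated transcription factor, had the smallest unadjusted ratio of PM-LMSC to A-LMSC among the 9 genes. Smad3 (ENSMUSG00000032402, chromosome 9, 63646767 to 63757994, minus strand) had 78.2 CPM in A-LMSC, then 141 in PM-LMSC and 114 in M-LMSC. The libraries spanned less than 2-fold, with PM-LMSC at 1.80-fold (1.66 to 1.96) and M-LMSC at 1.46-fold (1.35 to 1.59) the level of A-LMSC.

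Smad7 and Smurf2, the feedback pair, differed in how far they stood above A-LMSC. Smad7 (ENSMUSG00000025880, chromosome 18, 75367529 to 75395935, plus strand), the inhibitory SMAD, had 34.6 CPM in A-LMSC, then 84.1 in PM-LMSC and 63.1 in M-LMSC. PM-LMSC was 2.43-fold (2.16 to 2.74) and M-LMSC 1.82-fold (1.62 to 2.05) the level of A-LMSC.

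Smurf2 (ENSMUSG00000018363, chromosome 11, 106820066 to 106920715, minus strand), the ubiquitin ligase that SMAD7 brings to the receptor, had 38 counts in A-LMSC, then 2259 in PM-LMSC and 2870 in M-LMSC. The levels were 3.44 CPM (2.44 to 4.73) in A-LMSC, then 176 (169 to 184) in PM-LMSC and 167 (160 to 173) in M-LMSC. The A-LMSC library alone was low. PM-LMSC stood 51.2-fold above A-LMSC (37.2 to 72.6) and M-LMSC 48.3-fold (35.1 to 68.5). By log2 ratio Smurf2 was number 6 of 12727 measured genes in PM-LMSC and number 26 of 13223 in M-LMSC, both against A-LMSC. In FPKM the level of Smurf2 was 0.096 times that of Smad7 in A-LMSC, 2.02 times in PM-LMSC and 2.55 times in M-LMSC. Its close relative Smurf1 had 224, 232 and 133 CPM in these libraries, so the 2 ligase genes differed in how they varied with stage.

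PM-LMSC were set against A-LMSC to ask what stromal cells cultured from the pre-metastatic lung express. Of the 9 genes, PM-LMSC had 7 higher and 0 lower by at least 2-fold, where 35.0% of all 12727 measured genes were higher and 25.0% lower. The median log2 ratio was 2.26, beside 0.19 over all genes. In M-LMSC against A-LMSC, 5 of 9 were higher and 0 lower, where 41.0% of 13223 genes were higher and 27.7% lower, and the median was 2.17, beside 0.34. With library totals alone in place of TMM, the counts of higher genes were 9 in PM-LMSC and 8 in M-LMSC. The TMM factors were 0.82 in A-LMSC, then 1.02 in PM-LMSC and 1.20 in M-LMSC. Leaving them out raises the ratios of all genes to A-LMSC, and the shares of all genes were not computed with library totals. The comparisons of PM-LMSC and M-LMSC with A-LMSC share the A-LMSC library. In M-LMSC against PM-LMSC, which does not use A-LMSC, 1 of 9 genes was lower (Tgfb3) and 0 higher, where 7.85% of 13181 genes were lower and 17.3% higher. The levels in M-LMSC were 0.77-fold (0.73 to 0.82) those in PM-LMSC for Tgfbr2, 0.81-fold (0.76 to 0.87) for Smad3 and 0.75-fold (0.69 to 0.82) for Smad7. Smurf2 stood at 0.94-fold, and its interval of 0.89 to 1.00 ended just under no difference.

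Ratios between the libraries moved with base composition and with transcript length. Across protein-coding genes, the log2 ratio was lower at higher GC content of the transcript, at a Spearman rho of -0.63 over 12105 genes in PM-LMSC and of -0.71 over 12606 genes in M-LMSC, which share the libraries and are not replicates. These genes were divided into 5 equal groups by GC content. In the group of lowest GC content, 58.9% reached 2-fold in PM-LMSC over A-LMSC and 82.0% in M-LMSC over A-LMSC. In the group of highest GC content, 2.27% and 4.36% did. The trend was also present, less steeply, between M-LMSC and PM-LMSC (rho of -0.39 over 12566 genes), where 49.5% of the lowest and 8.27% of the highest group reached 2-fold higher. Inhba (41.4% GC) and Tgfbr1 (41.0%) lie in the lowest group, Smurf2 (46.8%) and Tgfb2 (46.9%) in the next, Tgfbr2 (49.6%) and Tgfbr3 (48.6%) in the middle group, Tgfb3 (53.0%) and Smad3 (53.1%) in group 4, and Smad7 (56.9%) in the highest. The part of this trend in the single ratios was not tested, and values with the trend in GC content and transcript length subtracted are given beside them.

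With the trend subtracted, Smurf2 kept the largest log2 ratio of the 9 genes, with 3.42 for PM-LMSC over A-LMSC (unadjusted 5.32) and 3.14 for M-LMSC over A-LMSC (unadjusted 5.24). It was then number 53 of 12698 genes in PM-LMSC and number 143 of 13189 in M-LMSC. Tgfb3 and Smad7 moved the other way: Tgfb3 had 2.34 in place of 1.96 in PM-LMSC and 1.07 in place of 0.42 in M-LMSC, and Smad7 had 2.13 in place of 1.26 and 1.96 in place of 0.85. Tgfb2 stood at 1.63 and 1.49 after subtraction. Smad3 stood at 0.92 in place of 0.84 in PM-LMSC and 0.83 in place of 0.54 in M-LMSC, so that the 3 receptors then had smaller values than Smad3.

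The receptors were under 2-fold from A-LMSC with the trend subtracted, and Tgfbr2 turned below it in both comparisons. Tgfbr1 had log2 ratios of 0.72 in PM-LMSC and -0.09 in M-LMSC, Tgfbr2 -0.43 and -0.79, and Tgfbr3 0.61 and 0.52. Inhba had 1.90 in PM-LMSC and 0.05 in M-LMSC. After subtraction 5 of the 9 reached 2-fold in PM-LMSC over A-LMSC, where 18.9% of all genes did, 17.1% of all genes being lower, and 4 of 9 in M-LMSC, where 18.8% did and 18.8% were lower. Those 5 were Smurf2, Tgfb3, Smad7, Inhba and Tgfb2, and the 4 in M-LMSC were the same without Inhba. In M-LMSC against PM-LMSC, Tgfb3 stayed lower at -1.23 (unadjusted -1.54), and Inhba was lower at -1.84 (unadjusted -0.85), where 8.92% of all genes were lower and 10.9% higher.

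**Figure D2:**
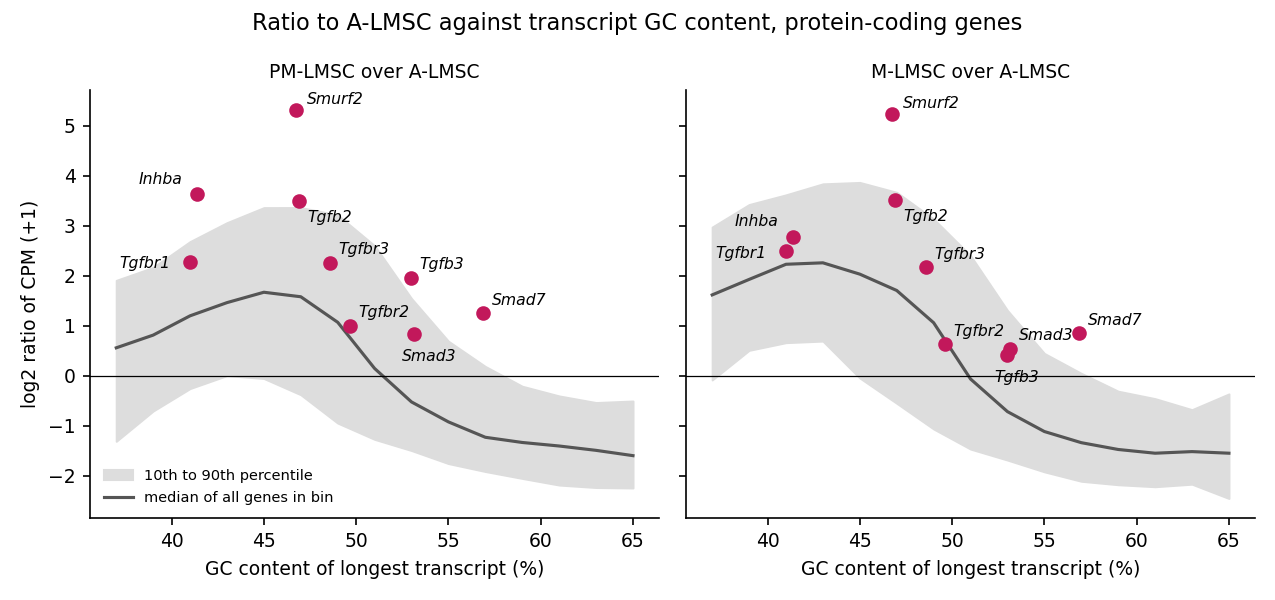
Log2 ratio of CPM + 1 to A-LMSC against GC content of the longest transcript, for PM-LMSC (left) and M-LMSC (right). Grey bands span the 10th to 90th percentile of protein-coding genes in bins of GC content, the line is their median, and points are the 9 genes. Smurf2 lies above the band in both panels, and Tgfbr2 lies on or near the median line.

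**Figure D3:**
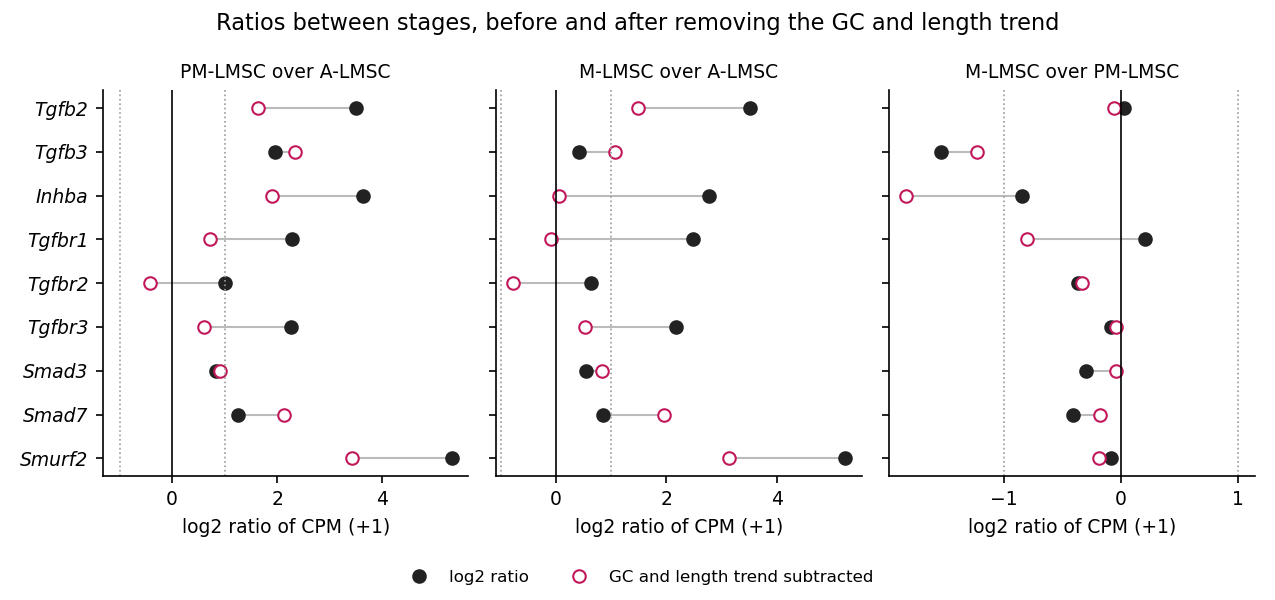
Log2 ratio of CPM + 1 of each gene in the 3 comparisons, before (filled) and after (open) subtracting the trend with GC content and transcript length. Dotted lines mark 2-fold. Smurf2 is at 5.32 before and 3.42 after in PM-LMSC over A-LMSC, and Tgfb3 is at -1.54 and -1.23 in M-LMSC over PM-LMSC.

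Genes that store and activate latent TGF-β went both ways. Of 20 listed, 18 were measured in PM-LMSC against A-LMSC, of which 6 were higher and 6 lower by at least 2-fold, near the 35.0% and 25.0% of all genes. After subtraction of the trend 5 were higher and 2 lower, where 18.9% and 17.1% of all genes were. In M-LMSC against A-LMSC 7 of 19 were higher and 9 lower, beside 41.0% and 27.7% of all genes, and with the trend subtracted 4 and 6, beside 18.8% each. Thbs1, the thrombospondin that can activate latent TGF-β, had 793 CPM in A-LMSC, then 11124 in PM-LMSC and 4297 in M-LMSC. Ltbp1, which tethers the latent complex to matrix, had 37.0, 341 and 139 CPM. Like Tgfb3 and Inhba, both were highest in PM-LMSC. Lrrc32, which holds latent TGF-β at the cell surface, had 1515, 592 and 206 CPM, and Ltbp4, another latent TGF-β binding protein gene, had 763, 248 and 206 counts. Both were highest in A-LMSC. Of the integrin subunits that bind the propeptide, Itgav had 12.8, 45.3 and 193 CPM, Itgb1 42.6, 1846 and 2074, and Itgb5 1120, 298 and 213. The matrix glycoprotein gene Emilin1, whose product holds back TGF-β processing, had 813, 159 and 149 CPM.

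The other receptors and coreceptors were split as well. Of 9 measured, 4 were higher and 3 lower in PM-LMSC against A-LMSC, and 5 were higher and 2 lower in M-LMSC, beside 35.0% and 25.0% of all genes in PM-LMSC and 41.0% and 27.7% in M-LMSC. Acvrl1, a type I receptor for BMP9 best known from endothelium, had 276 CPM in A-LMSC, then 37.7 in PM-LMSC and 80.6 in M-LMSC, and Eng, its coreceptor endoglin, 243, 99.6 and 122. Bambi, a decoy receptor without a kinase, had 70.5, 25.6 and 11.2 CPM. Against these, Nrp1, a neuropilin that binds TGF-β, had 2.72, 42.7 and 32.6 CPM, and Cd109, a TGF-β coreceptor that restrains signalling, had 2.36, 15.5 and 58.7. The activin receptor gene Acvr2a had 5, 65 and 152 counts, and the BMP receptor gene Bmpr2 had 55, 69 and 699. With the trend subtracted, 2 were higher and 3 lower in PM-LMSC, beside 18.9% and 17.1% of all genes. Among them were Nrp1 at 2.22 and Bambi at -3.31 on the log2 scale. In M-LMSC 2 were then higher and 1 lower, beside 18.8% each.

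Among ligands and antagonists related to activin, Fst was the closest partner of Inhba. Fst, the follistatin that binds and neutralises activin, had 11.9 CPM in A-LMSC, then 161 in PM-LMSC and 50.4 in M-LMSC, so it too was highest in PM-LMSC. Its log2 ratio of PM-LMSC to A-LMSC was 3.65, or 2.21 with the trend subtracted. Fstl1, a follistatin-like gene, had 325, 1865 and 998 CPM. Inha, the inhibin subunit that pairs with the Inhba product, had 110, 22 and 45 counts, Fstl3 174, 79.6 and 69.2 CPM, the stress-induced ligand gene Gdf15 89.4, 12.2 and 41.2 CPM and the antagonist gene Lefty1 21.9, 3.98 and 6.21 CPM. Of 8 measured in PM-LMSC against A-LMSC 2 were higher and 4 lower, and of 9 in M-LMSC 3 were higher (Fst, Fstl1 and Mstn, the last with 1, 0 and 26 counts) and 4 lower. The shares of all genes were 35.0% higher and 25.0% lower in PM-LMSC, and 41.0% and 27.7% in M-LMSC. Subtracting the trend gave 3 higher and 1 lower in PM-LMSC, beside 18.9% and 17.1% of all genes. In M-LMSC it gave 1 higher and 0 lower, beside 18.8% each.

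The other SMADs and their partners were mostly higher outside A-LMSC before the trend was subtracted. Of 14 measured, 9 were higher and 2 lower in PM-LMSC, where 35.0% and 25.0% of all genes were. In M-LMSC 10 were higher and 3 lower, where 41.0% and 27.7% of all genes were. With the trend subtracted these counts were 3 and 2 in PM-LMSC, beside 18.9% and 17.1% of all genes. In M-LMSC they were 4 and 1, beside 18.8% each. The shares of higher genes then lay near those of all genes. Smad2, the other transducer of TGF-β, had 3.26 CPM in A-LMSC, then 21.8 in PM-LMSC and 28.0 in M-LMSC, and Smad4, the shared partner, 21.0, 74.1 and 64.1. Smad5, a transducer of BMP, had 2.36, 26.3 and 33.6 CPM, and Zfyve9, the SARA anchor that holds SMAD2 and SMAD3 at the receptor, 0.906, 9.69 and 22.3. Smad6, the inhibitory SMAD of BMP signalling, went the other way from Smad7, with 78.0, 29.1 and 28.4 CPM, although its log2 ratio of -1.39 in PM-LMSC became 0.11 with the trend subtracted. The corepressor gene Ski had 204, 210 and 85.5 CPM and Tgif2 14.0, 5.78 and 3.25.

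Among other inhibitors and ubiquitin ligases, 5 of 16 were higher and 1 lower in PM-LMSC against A-LMSC, and 9 were higher and 3 lower in M-LMSC. Of all genes, 35.0% were higher and 25.0% lower in PM-LMSC, and 41.0% and 27.7% in M-LMSC. With the trend subtracted, 1 was higher (Strap) and 3 lower in PM-LMSC, beside 18.9% and 17.1% of all genes. In M-LMSC 0 were then higher and 3 lower, beside 18.8% each. The ligase genes of the Smurf2 family Itch and Wwp1 had 2.81, 7.11 and 41.5 CPM and 3.08, 4.37 and 37.4 CPM, and the deubiquitinase gene Usp15, whose product acts on the receptor complex, had 3.44, 6.33 and 42.6. All of these were high in M-LMSC alone, unlike Smurf2, which reached its level in PM-LMSC. Rnf111, the ligase that removes SMAD7 and SKI proteins, had 5.35, 31.9 and 45.8 CPM. Stub1 had 508, 164 and 168 CPM.

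Target genes were mostly lower in M-LMSC than in PM-LMSC. Of 28 measured in PM-LMSC against A-LMSC, 12 were higher and 4 lower, beside 35.0% and 25.0% of all genes, with a median log2 ratio of 0.64, beside 0.19. After subtraction of the trend 10 were higher and 1 lower, beside 18.9% and 17.1%. In M-LMSC against A-LMSC, 5 of 29 were higher and 10 lower, beside 41.0% and 27.7% of all genes, with a median of -0.26, beside 0.34. After subtraction 3 were higher and 7 lower, beside 18.8% each. In M-LMSC against PM-LMSC, 17 of 29 were lower and 4 higher, where 7.85% of all genes were lower and 17.3% higher, and the median was -1.28, beside 0.03 over all genes. With the trend subtracted 16 were lower and 1 higher, at a median of -1.03, beside 8.92% and 10.9% of all genes. The list is one of textbook targets, many of which respond to other signals too.

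Il11, a cytokine induced by TGF-β in fibroblasts, had 29.7 CPM in A-LMSC, then 285 in PM-LMSC and 59.8 in M-LMSC. PM-LMSC was high and M-LMSC lower, the course of Tgfb3 and Inhba. Before the trend was subtracted, the collagen genes Col3a1, Col1a1 and Col1a2 were lower at each later stage. Col1a1 and Col1a2 are also among the 10 LMSC markers. With the trend subtracted, 0 of these 10 were lower by 2-fold in PM-LMSC than in A-LMSC, beside 17.1% of all genes. In M-LMSC 3 of the 10 were, beside 18.8%. Col3a1 had 3262, 1536 and 332 CPM, Col1a1 16401, 7267 and 1815, and Col1a2 13379, 5721 and 1511. Col4a1, a basement membrane collagen gene named after its values were seen, did not follow them, with 1984, 2690 and 566 CPM. Lox, the collagen cross-linking enzyme, ran against them with 249, 596 and 1559 CPM, as did Snai2 with 7, 82 and 217 counts and Hmga2 with 47.9, 197 and 263 CPM. Junb had 1037, 217 and 224 CPM. Chosen after their values were seen, Tgfbi, a matrix protein gene named for its induction by TGF-β, had 33, 179 and 24 counts, and Acta2, the myofibroblast actin, had 4429, 5781 and 5319 CPM. Tgfbi was highest in PM-LMSC, and Acta2 spanned less than 2-fold. Transcript levels do not measure TGF-β protein, its release from latency or SMAD phosphorylation.

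**Figure D4:**
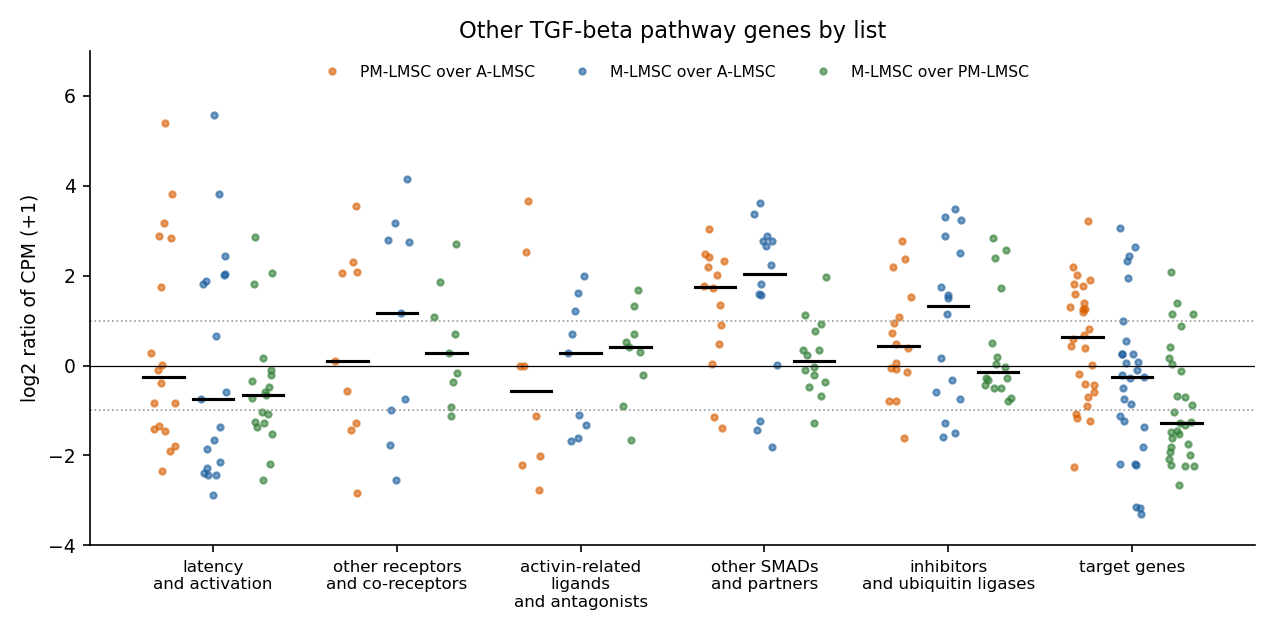
Log2 ratio of CPM + 1 of measured pathway genes in 6 lists, for the 3 comparisons. Each point is a gene, black bars are medians and dotted lines mark 2-fold. The target genes have a median of -1.28 in M-LMSC over PM-LMSC, and the other SMADs and partners have medians of 1.75 and 2.03 against A-LMSC.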

How the data were processed

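Per the labels, the data analysed here are RNA-seq of cultured LMSCs with 1 library per stage. The further libraries of each stage that the study's methods describe were not used here. Alignment with TopHat2 2.0.9 to mm10 is what the submitters' processing notes list. The sources used here do not give the counting program, annotation or strand setting. The deposited values are raw counts per gene and FPKM, in which the authors divided counts by gene length and library total. Of 34748 lines, 6 broken lines from 3 genes, Tgfb1 among them, were left out.

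CPM were computed from the deposited counts with TMM factors (edgeR 4.0.16, R 4.3.3), and log2 ratios with a pseudocount of 1. Folds with intervals use no pseudocount. No test was run, with 1 library per stage. GC content and length came from the longest GENCODE transcript for 98.6% of genes, and their trend was fitted by lowess (span 0.3, statsmodels 0.14.6) on protein-coding genes. Alternatives were library totals, median-of-ratios (DESeq2 1.42.0), upper-quartile scaling, FPKM, pseudocounts of 0.1 and 5, minima of 0 and 5 CPM, centring on the median gene and trend subtraction. The scaling, the 2-fold calls and the intervals of the folds were tested on simulated counts made without a trend in GC content. The trend subtraction was not tested in this way. Members and lists were chosen with earlier results of these data known. All members are named, with list genes of the largest ratio to A-LMSC, up to 4 in each direction, and partners of members.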

Additional observations from a re-analysis of the deposited data

How the results depend on the processing

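Most counts of members at least 2-fold higher or lower stayed within 1.5 times their value under the alternatives. In M-LMSC against A-LMSC, 5 of 9 members were higher, beside 41.0% of all genes, but 8 with library totals only and 8 with the deposited FPKM. The shares of all genes were not computed with library totals or FPKM. In M-LMSC against PM-LMSC, 1 member was lower, beside 7.85% of all genes. With the GC content and length trend subtracted 2 were, beside 8.92%. The log2 ratio of Tgfbr1 in M-LMSC against A-LMSC was 2.49 and turned to -0.0903 with the trend subtracted, and that of Tgfbr2, which was under 2-fold, turned to -0.43 in PM-LMSC and -0.79 in M-LMSC. Of 93 measured pathway genes, 38 were higher and 20 lower in PM-LMSC against A-LMSC, beside 35.0% and 25.0% of all genes. With the trend subtracted 24 were higher and 12 lower, beside 18.9% and 17.1%. In M-LMSC against A-LMSC 39 of 96 were higher and 31 lower, beside 41.0% and 27.7%. With the trend subtracted 14 were higher and 18 lower, beside 18.8% each. With FPKM 20 of 89 were lower, and the share of all genes was not computed. The ratios of Smurf2 to A-LMSC ranged over the alternatives from 3.42 to 5.64 in PM-LMSC and from 3.14 to 5.72 in M-LMSC. The ratio of Tgfb3 in M-LMSC against PM-LMSC ranged from -1.57 to -1.23. The signs of the small ratios of M-LMSC to PM-LMSC of Smurf2 (-0.19 to 0.16), Tgfbr3 (-0.12 to 0.15), Tgfb2 (-0.06 to 0.26) and Tgfbr1 (-0.81 to 0.43) depended on the setting. The cause was not tested. Tgfb2, Tgfbr1 and Smurf2 rest on 12, 22 and 38 counts in A-LMSC, so depth limits their folds. No paired analysis was possible because each stage had 1 library.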
